A study of Mus musculus with 2 samples.

Results

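The Etv4-only intergenic regions are stretches of mouse DNA that were recovered with an antibody to Etv4, did not overlap any region recovered with an antibody to Etv5, and lay between genes. Their midpoints were outside every annotated gene, more than 2 kb and at most 50 kb from the nearest annotated transcript start. They were selected on these positions and on the overlap call, and numbered 1973, which is 14.5% of the 13636 regions of the Etv4 list (interval 13.9 to 15.1%) and 56.4% of the 3496 Etv4 regions that met the same position rule (interval 54.8 to 58.1%). The other 1523 of these 3496 regions overlapped an Etv5 region and are called shared intergenic regions here.

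Both ChIP-seq libraries were made from EpRas, the H-Ras-transformed derivative of the EpH4 line of mouse mammary epithelium. For both, the medium contained 4% serum, and TGF-β3 had been present at 1 ng/ml for the last 1.5 h. One library was made with a rabbit polyclonal antibody to Etv4 and the other with a mouse monoclonal antibody to Etv5, so the lists differ in antibody as well as in factor. There was 1 library per antibody and no untreated or input library was analysed here. No difference could therefore be set against a spread between replicates, and no test was made. Intervals are exact (Clopper-Pearson) 95% binomial intervals that cover counting error only and treat regions as independent. Read counts were not part of the lists. The depth behind a region is therefore unknown, and a region missing from the Etv5 list may reflect less depth as well as less binding, which cannot be told apart.

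Etv4 and Etv5 belong to the PEA3 group of the ETS family, transcription factors that recognise DNA with a GGAA core and are activated downstream of the Ras-ERK pathway. ETS proteins often act beside AP-1, the dimer of Fos and Jun proteins that is also induced by Ras and growth factors. Intergenic sites bound by such factors are often enhancers, which act on transcription starts at a distance. TGF-β induces the epithelial-mesenchymal transition (EMT) in EpRas cells and acts through Smad proteins.

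The sequences of a few Etv4-only intergenic regions show the elements that the results turn on. In the first set, an ETS site (CAGGAAGT) and an AP-1 site (TGAGTCA, or TGACTCA on the other strand) lay side by side. These are 7 of the 8 closest pairs that do not overlap, both sites are in capitals, and each is named by the gene with the nearest transcript start.
Uap1, chr1:170136605-170136649, plus strand: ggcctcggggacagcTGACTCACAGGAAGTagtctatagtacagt
AC091309.3, chr17:84044505-84044551, plus strand: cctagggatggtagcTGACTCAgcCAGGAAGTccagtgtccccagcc
Gm47900, chr10:66864572-66864618, minus strand: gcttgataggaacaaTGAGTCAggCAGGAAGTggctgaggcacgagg
Vav1, chr17:57273893-57273939, minus strand: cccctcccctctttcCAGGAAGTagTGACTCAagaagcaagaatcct
A430110L20Rik, chr1:181232444-181232494, plus strand: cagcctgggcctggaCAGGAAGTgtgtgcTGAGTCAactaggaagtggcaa
n-R5s168, chr6:140358125-140358175, plus strand: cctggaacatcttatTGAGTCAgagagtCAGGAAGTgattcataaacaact
Angpt4, chr2:151906800-151906850, minus strand: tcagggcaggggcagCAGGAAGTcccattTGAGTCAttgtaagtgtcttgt
The pairs were separated by 0 bp at Uap1, by 2 bp in the following 3 sequences and by 6 bp in the remaining 3. Either site came first, and no single order or spacing was common to all 7.

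In the second set, an ETS site (in capitals) is shown with 20 bases on each side in Etv4-only intergenic regions near genes of TGF-β signalling, growth factors, matrix, matrix breakdown and ERK feedback (Dusp5). The site at Smurf1 was of the form CCGGAAGT and the others were CAGGAAGT.
Smurf1, chr5:144979181-144979228, minus strand: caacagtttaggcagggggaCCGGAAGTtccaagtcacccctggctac
Areg, chr5:91111100-91111147, minus strand: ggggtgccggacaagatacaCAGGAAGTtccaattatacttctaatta
Col1a1, chr11:94916733-94916780, plus strand: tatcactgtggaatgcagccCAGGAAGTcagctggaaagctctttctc
Fn1, chr1:71691700-71691747, minus strand: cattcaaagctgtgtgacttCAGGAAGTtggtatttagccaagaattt
Mmp13, chr9:7240156-7240203, minus strand: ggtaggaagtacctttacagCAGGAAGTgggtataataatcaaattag
Dusp5, chr19:53557452-53557499, minus strand: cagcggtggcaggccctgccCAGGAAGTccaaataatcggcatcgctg
A region near Krt8, which encodes an epithelial keratin, was the only one with 3 or more ETS sites. It had 6, on the minus strand (ACTTCCTG as printed, in capitals), each 22 bp from the start of the next.
Krt8, chr15:101995579-101995726, plus strand: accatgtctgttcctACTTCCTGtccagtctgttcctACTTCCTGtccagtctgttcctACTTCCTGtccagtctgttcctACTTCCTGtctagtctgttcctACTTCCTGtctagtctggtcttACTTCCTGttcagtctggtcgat
The AP-1 site is shown in capitals in the central 200 bp of the regions with the lowest region numbers near Itga5, the fibronectin receptor subunit integrin α5, and near Mmp9, a matrix metalloproteinase.
Itga5, chr15:103370472-103370671, plus strand: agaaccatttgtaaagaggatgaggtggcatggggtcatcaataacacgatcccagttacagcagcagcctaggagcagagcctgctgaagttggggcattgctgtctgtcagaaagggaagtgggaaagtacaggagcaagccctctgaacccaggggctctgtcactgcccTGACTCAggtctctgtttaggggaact
Mmp9, chr2:164932666-164932865, plus strand: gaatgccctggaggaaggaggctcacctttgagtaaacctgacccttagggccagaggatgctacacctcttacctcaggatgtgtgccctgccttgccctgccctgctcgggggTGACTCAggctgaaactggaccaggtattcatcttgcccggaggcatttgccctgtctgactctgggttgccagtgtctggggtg

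Of the elements searched, AP-1 sites had the highest fold over intergenic windows in Etv4-only intergenic regions. In 500 bp around the midpoint, 875 of the 1973 regions held TGAGTCA on either strand (44.3%, interval 42.1 to 46.6%). The background was every 500 bp window on a fixed grid that met the same position rule, held no unknown base and lay outside all regions of both lists. Of these 1847457 windows, 7.48% held an AP-1 site. Etv4-only intergenic regions were richer in G and C than the windows (median GC content 46.8% against 41.2%), and windows of equal GC content held the site in 7.90% of cases. The AP-1 share was thus 5.61-fold that of the windows (interval 5.33 to 5.89). Shared intergenic regions had it more often (50.3%, interval 47.8 to 52.8%) and Etv5-only intergenic regions, of which there were 761, less often (28.4%, interval 25.2 to 31.7%). AP-1 sites recurred within regions, with 208 Etv4-only intergenic regions holding at least 2 and 24 holding at least 3.

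The ETS element was present in 190 Etv4-only intergenic regions (9.63%, interval 8.36 to 11.02%), compared with 3.47% of all windows and 4.17% of windows of equal GC content. This was 2.31-fold the latter share (interval 2.01 to 2.64). The fold depended on the pattern, since GGAA after A or C and before A or G was present in 80.4% of the regions, at 1.07-fold. Of the 190 regions, 172 held CAGGAAGT and 19 held CCGGAAGT. The same elements written backwards (TGAAGGAC or TGAAGGCC), a control of equal composition, were at 0.671-fold (interval 0.511 to 0.863). Thus 1783 of the Etv4-only intergenic regions carried no ETS element of this form. The share was 7.68% in shared intergenic regions (interval 6.39 to 9.14%) and 8.30% in the 2348 Etv4-only regions in introns (interval 7.22 to 9.50%), and these intervals overlapped that of the Etv4-only intergenic regions. In Etv5-only intergenic regions it was 4.99% (interval 3.56 to 6.79%), 1.27-fold the share of their windows (interval 0.903 to 1.72), and this share lay below the interval of the Etv4-only intergenic regions.

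**Figure D1:**
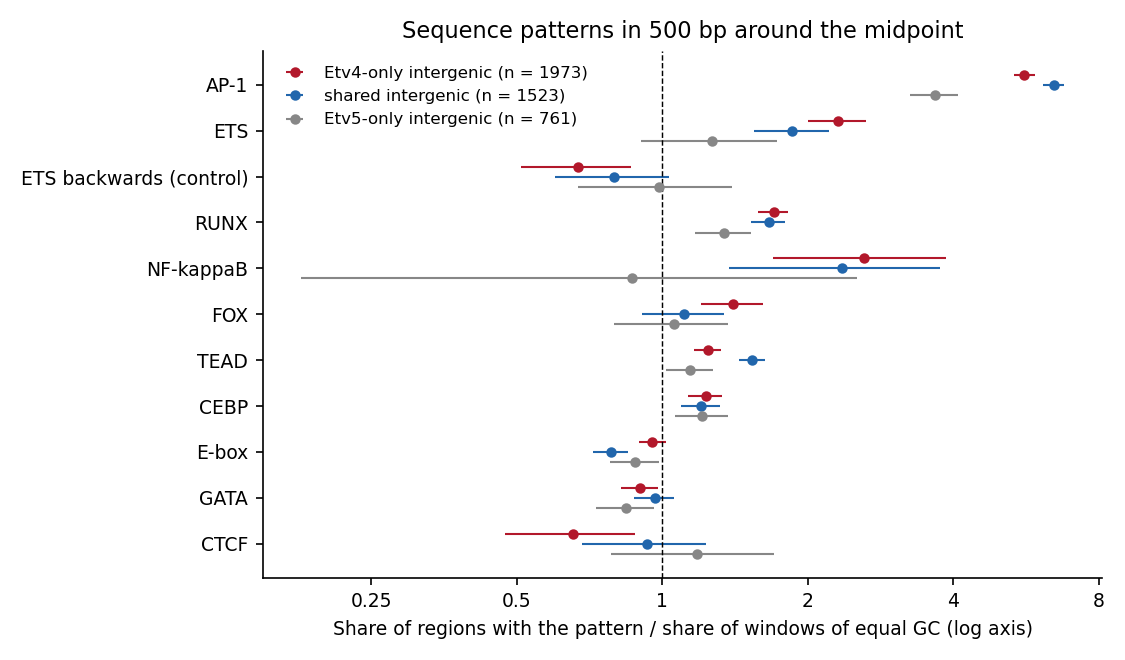
Share of regions with each sequence element in 500 bp around the midpoint, divided by the share of intergenic windows of equal GC content (log axis), for 1973 Etv4-only, 1523 shared and 761 Etv5-only intergenic regions. Bars are 95% binomial intervals and the dashed line marks 1. AP-1 stands at 5.61 and ETS at 2.31 in Etv4-only intergenic regions, and the backwards ETS control at 0.671.

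RUNX sites (TGTGGTT or TGTGGTC), bound by the Runx family, were present in 567 Etv4-only intergenic regions (28.7%, interval 26.7 to 30.8%). Windows held them in 16.7% of cases, and the fold at equal GC content was 1.70 (interval 1.58 to 1.82). Shared intergenic regions had nearly the same RUNX share, 27.8% (interval 25.6 to 30.2%), before the weighting by region number given below. Elements of NF-κB, a mediator of inflammatory signals, were rare, with 25 regions at 2.62-fold (interval 1.70 to 3.85). Forkhead sites (TGTTTAC) were at 1.401-fold (interval 1.204 to 1.62) and C/EBP sites (TTGCNNAA) at 1.23-fold (interval 1.13 to 1.33). The palindromic Smad element GTCTAGAC was found in 15 regions, at 1.86-fold (interval 1.04 to 3.05). CTCF elements, which mark insulators, were less frequent than in windows, with 42 regions and 0.653-fold (interval 0.472 to 0.880). Sites of the epithelial factor Grainyhead-like (AACCNGTT) were at 0.952-fold, with an interval that included 1 (0.741 to 1.204).

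TEAD sites and the E-box separated Etv4-only from shared intergenic regions. TEAD proteins are the DNA-binding partners of Yap and Taz. Their element GGAATG was present in 33.1% of Etv4-only intergenic regions (interval 31.1 to 35.3%) and in 40.2% of shared ones (interval 37.8 to 42.8%). The E-box CACCTG is recognised by zinc finger repressors such as Snail and Zeb, which act in EMT. It was present in 32.8% of Etv4-only intergenic regions (interval 30.8 to 35.0%) and in 27.3% of shared ones (interval 25.1 to 29.6%). Both pairs of intervals were apart. Etv4-only intronic regions stood at 33.2% for TEAD (interval 31.3 to 35.1%) and at 29.9% for the E-box (interval 28.0 to 31.8%). Against windows of equal GC content, TEAD sites were at 1.24-fold in Etv4-only intergenic regions (interval 1.17 to 1.32) and at 1.54-fold in shared ones (interval 1.44 to 1.63). The E-box was at 0.955-fold in Etv4-only intergenic regions (interval 0.895 to 1.02) and depleted, at 0.785-fold, in shared ones (interval 0.721 to 0.851). The higher E-box share in Etv4-only intergenic regions was thus no excess over the genome.

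AP-1 and ETS sites were denser at the midpoints than beside the regions. The central 200 bp of Etv4-only intergenic regions held 1.72 AP-1 sites per kb, 8.16 times the density at 300 to 900 bp from the midpoint. For ETS sites the central density was 0.253 per kb and the ratio 2.69, and for RUNX sites the ratio was 1.78. The backwards ETS control had a ratio of 0.905. The backwards AP-1 control (ACTGAGT), which can overlap an AP-1 site, had a ratio of 1.65, close to that of RUNX sites. The ETS ratio was 2.38 in shared intergenic regions, 2.41 in Etv4-only intronic regions and 1.05 in Etv5-only intergenic regions, the last from 13 central sites. The AP-1 ratios were 9.93, 7.68 and 4.17 in the same order.

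**Figure D2:**
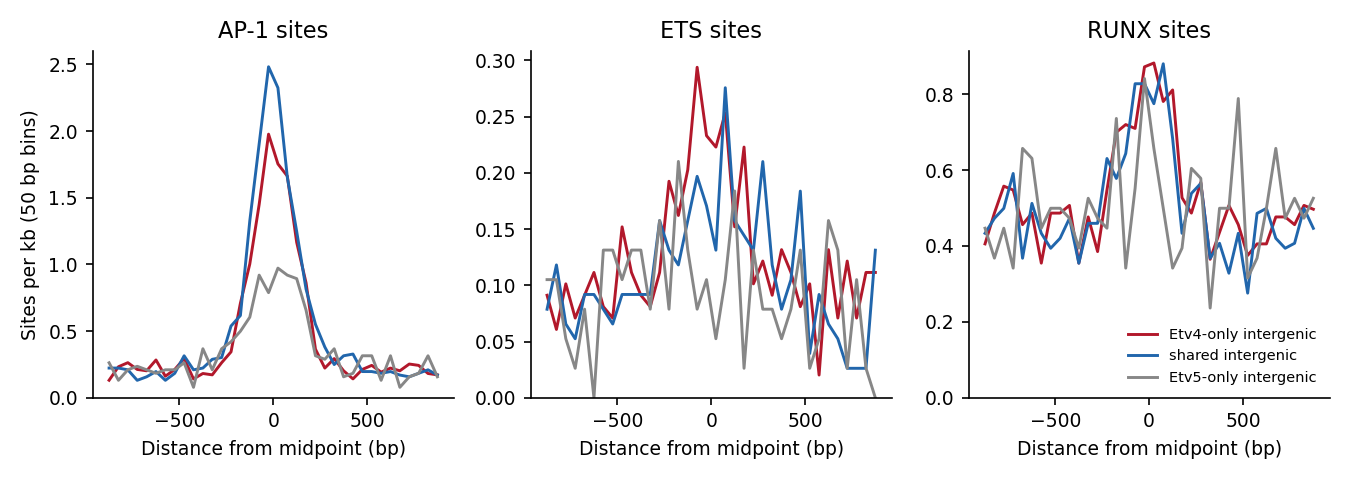
Density of AP-1, ETS and RUNX sites (sites per kb, in bins of 50 bp) against the distance from the region's midpoint (bp), for Etv4-only, shared and Etv5-only intergenic regions. The vertical axes differ in scale. AP-1 sites are densest in the bins beside the midpoint in Etv4-only and shared intergenic regions, and ETS sites in Etv4-only intergenic regions rise to 2.69 times the distal density.

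ETS and AP-1 sites occurred together in 92 Etv4-only intergenic regions, ETS alone in 98 and AP-1 alone in 783. The remaining 1000 regions (50.7%, interval 48.5 to 52.9%) had neither, and 715 of these had no RUNX site either. Neither element was found in 89.4% of the windows. The AP-1 share was 48.4% in regions with an ETS site (interval 41.1 to 55.8%) and 43.9% in those without one (interval 41.6 to 46.3%), and these intervals overlapped. Among the 92 regions with both, the nearest pair overlapped in 5 regions, lay 0 to 20 bp apart in 19, 21 to 50 bp in 10, 51 to 100 bp in 22 and further apart in 36. Pairs 0 to 20 bp apart were thus found in 0.963% of Etv4-only intergenic regions and 1.05% of shared intergenic regions. The share was 0.511% in Etv4-only intronic and 0.263% in Etv5-only intergenic regions. In windows of any GC content it was 0.0321%, where any such pair counted rather than the nearest.

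A count of all 7-base sequences gave the same leading element. Of those present in at least 30 Etv4-only intergenic regions, the most enriched over windows of equal GC content was the AP-1 site itself. The following 4 overlap it by 6 bases. With an A before the site, ATGAGTC stood at 3.96-fold and its counterpart for the other strand of the site, ATGACTC, at 3.60-fold. With a G before it, GTGACTC stood at 3.22-fold and its counterpart GTGAGTC at 3.06-fold. TGACTAA, which differs from the AP-1 site by 1 base, stood at 2.76-fold. The other 4 of the leading 10 each occurred in 42 regions or fewer. GACCGCA (2.88-fold, 42 regions) contains TGCGGT on the other strand, a known form of the RUNX site. TATCGGA (3.05-fold), ATCCGAA (2.84-fold) and GCGAGAC (2.75-fold) contain a CpG dinucleotide, and 21 of 32, 15 of 39 and 13 of 41 of their regions were of repeated sequence as defined next.

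Repeated sequence formed a separate group. In 158 Etv4-only intergenic regions (8.01%, interval 6.85 to 9.29%), over 50% of all stretches of 36 bases had a second copy elsewhere in the genome. Such regions are called mostly multicopy here. Their share was 15.3% in windows of 500 bp placed every 200 kb over the genome, 10.8% in shared and 21.3% in Etv5-only intergenic regions. AP-1 sites were nearly absent from them, in 6 of 158 regions (3.80%, interval 1.41 to 8.08%), against 869 of the other 1815 (47.9%, interval 45.6 to 50.2%). ETS sites were found in 8 of the 158 (5.06%, interval 2.21 to 9.73%). Of the 23 Etv4-only intergenic regions on chromosome Y, 22 were mostly multicopy, as were 15 of the 31 on chromosome X.

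The overlap with Etv5 chose the regions, so what goes with it is given as a description. The lists number their regions by a criterion that is not stated, and low numbers fall on long regions. Etv4-only intergenic regions stood late in the Etv4 list, at a median of 61.5% of its length against 25.8% for shared intergenic regions. They measured 525 bp in the median (quartiles 392 and 624 bp), against 727 bp for shared intergenic regions. Of the intergenic regions in the first quintile of the list by number, 161 were Etv4-only and 634 shared, and in the last quintile 528 were Etv4-only and 99 shared. The Etv4-only intergenic regions nearest to an Etv5 region missed it by 8, 13 and 13 bp, and the shared regions with the least overlap had 9, 17 and 21 bp in common with it. The nearest transcript starts were 2.003 and 2.005 kb away just inside the lower limit and 1.983 and 1.973 kb just outside it. The corresponding distances were 49.9 and 49.9 kb inside the upper limit and 50.01 and 50.2 kb outside it. One of the regions just outside the lower limit, of 1034 bp, lay 1.973 kb from the start of Id1.

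Because region number and overlap go together, the elements were compared by quintile of region number, which evens out the numbers only in part. In the first quintile the median length was 835 bp in Etv4-only intergenic regions and 914 bp in shared ones. With shared intergenic regions weighted to the spread of Etv4-only intergenic regions over the quintiles of the list, their AP-1 share was 44.96%, which lies within the interval of the Etv4-only intergenic regions. The ETS share of shared regions became 6.26%, the TEAD share 38.9% and the E-box share 25.2%. ETS and the E-box were more frequent in Etv4-only than in shared intergenic regions in each of the 5 quintiles. TEAD sites were less frequent in each, with nearly equal shares in the third (37.5 and 38.1%) and the last (33.1 and 33.3%). In the first quintile, the ETS share was 13.7% in Etv4-only intergenic regions (interval 8.77 to 19.95%) and 8.99% in shared ones (interval 6.88 to 11.5%). The TEAD share there was 27.3% (interval 20.6 to 34.9%) against 41.6% (interval 37.8 to 45.6%), and these intervals were apart. In the last quintile, AP-1 sites were present in 36.7% of Etv4-only intergenic regions (interval 32.6 to 41.0%) and in 35.4% of shared ones (interval 26.0 to 45.6%).

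**Figure D3:**
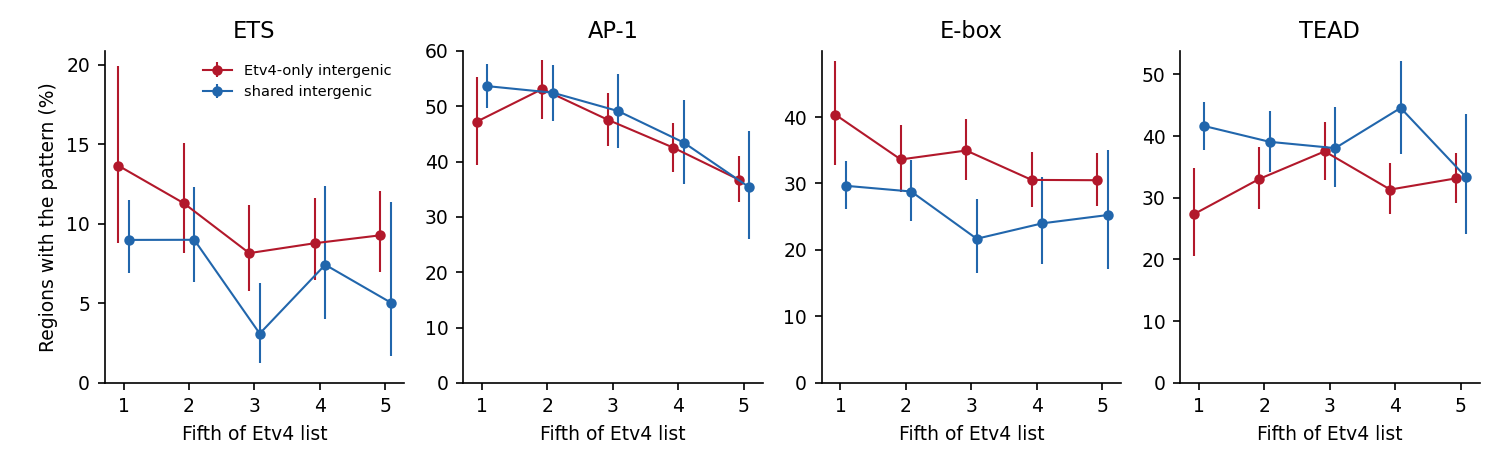
Share of Etv4-only and shared intergenic regions with an ETS, AP-1, E-box or TEAD site (%), by quintile of the Etv4 list in the order of region number, with 95% binomial intervals. AP-1 shares fall towards the last quintile in both classes, and most intervals of the 2 classes overlap. In each quintile the E-box is higher and TEAD lower in Etv4-only intergenic regions, TEAD only barely in the third and last.

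The region numbers single out the regions at the head of the list. Leaving out 8 mostly multicopy regions, the first 10 included regions near Rpl10a (chr17:28330570-28332188), Hnrnpa3 (chr2:75668364-75671081), Blm (chr7:80552723-80553323), Gm43266 (chr5:53952088-53953320), Rps9 (chr7:3707197-3708547), Scml4 (chr10:42856474-42857120), AC165259.1 (chr17:45798386-45799620), 4921539H07Rik (chr3:58171937-58172737) and Ino80c (chr18:24101555-24102379). Rpl10a and Rps9 encode ribosomal proteins and their transcript starts were 2.10 and 2.26 kb away. None of the 10 held an ETS site, which 9.63% of all Etv4-only intergenic regions held, so none among 10 is a small shortfall. AP-1 sites were present at 2 of the 10, AC165259.1 and Ino80c, each with 2 sites, beside 44.3% of all. Among the 50 lowest numbers, of which 16 were mostly multicopy, AP-1 sites were present in 14 (28.0%, interval 16.2 to 42.5%), and ETS sites in 6 (12.0%, interval 4.53 to 24.3%). This AP-1 interval lies below the share of all Etv4-only intergenic regions (44.3%), while the ETS interval includes theirs (9.63%). Among the 100 lowest, of which 20 were mostly multicopy, AP-1 sites were present in 40 (interval 30.3 to 50.3%) and ETS sites in 15 (interval 8.65 to 23.5%), and these intervals include the shares of all Etv4-only intergenic regions. In the first quintile as a whole AP-1 sites were present in 47.2% (interval 39.3 to 55.2%). The regions near Rpl10a and Rps9 thus stood early in the list without either element in the central 500 bp.

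Etv4-only intergenic regions lay nearer to transcript starts than the windows, with a median distance of 12.6 kb (quartiles 6.14 and 23.5 kb) against 15.7 kb. Between 2 and 5 kb there were 381 regions, 19.3% of the regions against 13.9% of the windows. AP-1 sites were least frequent there (36.7%, interval 31.9 to 41.8%) and reached 47.9% (interval 43.9 to 51.8%) between 20 and 50 kb. The ETS share was alike at all distances, between 9.13 and 10.6%. Upstream positions made up 54.6% (interval 52.4 to 56.9%), compared with 56.2% of windows. The nearest start was that of a protein-coding gene in 844 cases, a processed pseudogene in 371 and a lincRNA in 354. Another Etv4 region was found within 10 kb of 953 Etv4-only intergenic regions (48.3%), compared with 49.9% of shared ones. An Etv5 region, without overlap, lay within 10 kb of 599 (30.4%), compared with 32.9% of Etv4-only intronic regions. Of Etv5-only intergenic regions, 30.7% had an Etv4 region within 10 kb. The median distance to an Etv5 region was 35.4 kb.

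The regions were unevenly spread over the chromosomes. Per Mb of eligible intergenic sequence, chromosome 11 held 1.89 times the mean number of Etv4-only intergenic regions, and chromosomes 15, 19 and 1 had densities 1.46, 1.45 and 1.42 times as high. The ratio was 0.630 for chromosome 14 and 0.198 for chromosome X. Shared intergenic regions had ratios of 1.89 on chromosome 11, 2.28 on chromosome 19, 0.332 on chromosome 14 and 0.297 on chromosome X. Their order was thus similar but not the same, and chromosome 8 was below the mean for Etv4-only regions (0.923) and above it for shared regions (1.52). Copy number was not measured, and its part in these ratios was not tested.

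**Figure D4:**
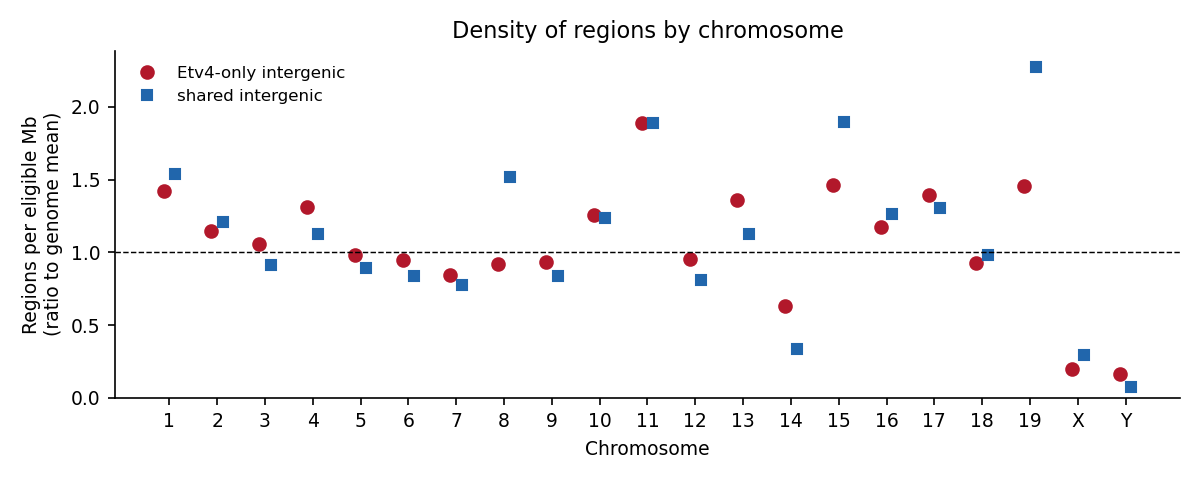
Regions per Mb of intergenic sequence 2 to 50 kb from a transcript start, as a ratio to the mean of the genome, by chromosome, for Etv4-only and shared intergenic regions. The dashed line marks the mean. Chromosome 11 is highest for Etv4-only intergenic regions at 1.89, and chromosomes X and Y are lowest at 0.198 and 0.164.

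The regions were then assigned to protein-coding genes by the nearest protein-coding transcript start. Of the 1973 regions, 1332 had one within 50 kb, and these belonged to 1045 genes, or 4.77% of the 21911 protein-coding genes. Genes with at least 2 such regions numbered 210, and those with at least 3 numbered 53. A shared intergenic region was assigned to 244 of the 1045 genes (23.3%), compared with 3.64% of all protein-coding genes. An Etv4 region within 2 kb of a start was present at 371 of them (35.5%), compared with 17.9% of all. Conversely, 9.47% of the 3918 genes with an Etv4 region at a start had an Etv4-only intergenic region. A nearest start does not show which gene a region acts on.

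Npl, which encodes a sialic acid lyase, had the most Etv4-only intergenic regions (6), followed by Csf1, encoding macrophage colony-stimulating factor, Smad7 and Tns3 with 5 each. Emp1, Tm4sf1 and Gprc5a, which encode membrane proteins, were among the genes with 4 and were picked out after their values were seen. In the densest groups, 7 Etv4-only intergenic regions lay within 100 kb. The group between Npl and Rgs8 (chr1:153559878-153636054) held 2 shared regions as well. The group near Ahcyl1 and Csf1 (chr3:107706214-107797140) had no shared and no Etv5 region within its 100 kb. The group near Ifne (chr4:88876497-88956411), in which 3 regions had the microRNA gene Mir31 as the nearest start, stood among 33 Etv4 regions, 13 of them shared, and 20 Etv5 regions. This stretch of chromosome 4 was the densest of the Etv4 list, with 130 Etv4 regions in 2 Mb, of which 19 were Etv4-only and intergenic. AP-1 sites were present in 3, 4 and 2 of the 7 regions of these groups, beside 44.3% of all Etv4-only intergenic regions. None of the 21 regions of these groups held an ETS site, which at 9.63% of all Etv4-only intergenic regions is a small shortfall in so few regions.

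Lists of genes of pathways and cell types relevant to EMT differed in how many of their genes had such a region. In all, 94 Etv4-only intergenic regions were assigned to 62 listed genes, and 44 of these genes also had an Etv4 region at a start, beside 35.5% of all genes with an Etv4-only intergenic region. AP-1 sites were present in 49 of the 94 and ETS sites in 8, most of which are shown above, beside 44.3 and 9.63% over all 1973 regions. The highest share was that of TGF-β feedback and direct targets, with 10 of 16 genes (62.5%) against 4.77% of all protein-coding genes. Of genes with an Etv4 region at a start, as all 10 had, 9.47% had an Etv4-only intergenic region. The lists were chosen with earlier results of these data known, so these shares are a description only. A shared intergenic region was assigned to 6 of the 16, and 5 genes had both. None of the 22 genes of loci silent in epithelium had either kind, a count that is hardly below the share of all protein-coding genes in so short a list. None of the 16 TGF-β ligands and receptors had an Etv4-only intergenic region, while 2 had a shared one.

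**Figure D5:**
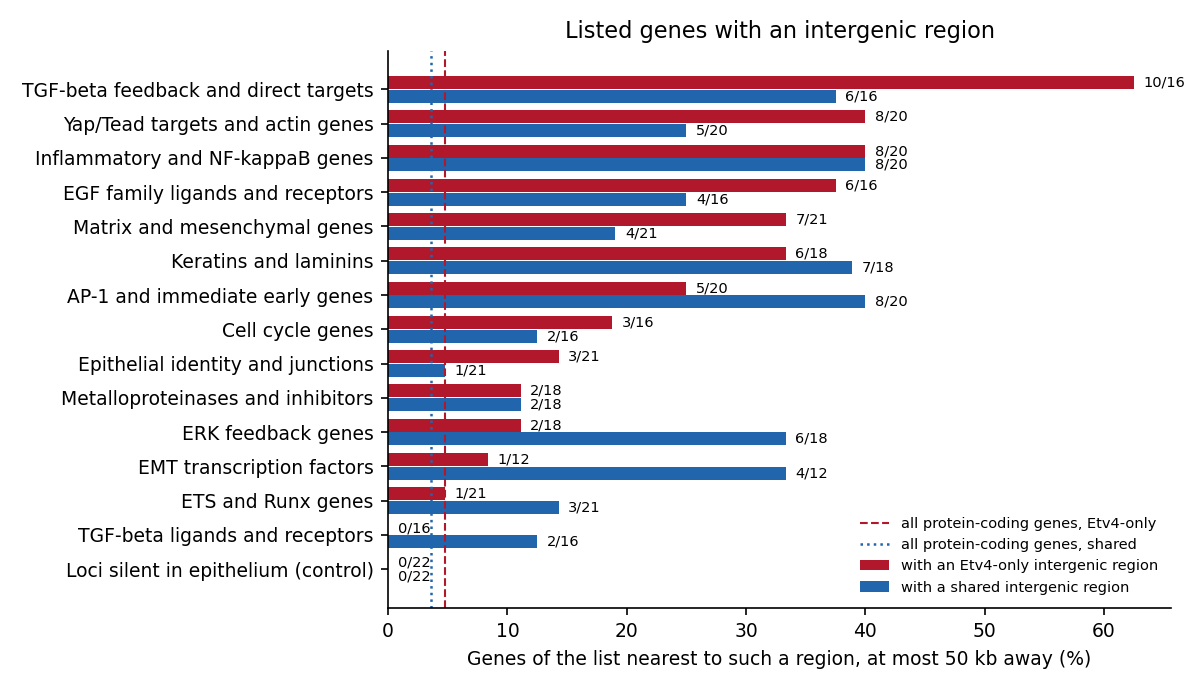
Share of the genes of each list (%) that are nearest, within 50 kb, to an Etv4-only or to a shared intergenic region, with the count of genes beside each bar. The dashed and dotted lines mark the shares of all protein-coding genes, 4.77 and 3.64%. TGF-β feedback and direct targets reach 62.5% for Etv4-only intergenic regions, and the 22 loci silent in epithelium are at 0, too few genes to differ from the line. The EGF family list also holds Epha2, Fgfr1, Fgfr2 and Met. The lists were chosen with earlier results of these data known.

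The 10 TGF-β feedback and direct target genes included Id1, Id2, Id3, Klf10, Ltbp2, Pmepa1, Smad7, Smurf1 and Tgif1. They had 18 Etv4-only intergenic regions, and each had an Etv4 region at a start (35.5% over the 1045 genes). Smad7, which encodes an inhibitor of TGF-β receptor signalling, had 5 regions, of which chr18:75341871-75343618 was the longest at 1748 bp. It lay 24.8 kb upstream, held an AP-1 site and missed an Etv5 region by 1.04 kb. Ltbp2 (chr12:84889920-84890789), encoding an extracellular matrix protein, had a region 13.8 kb upstream with 2 RUNX sites. Id3 (chr4:136110322-136111098), which encodes an inhibitor of helix-loop-helix factors, had a region 32.8 kb upstream with 1 AP-1 site, 61.3 kb from the nearest Etv5 region.

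Growth factor, Yap and inflammatory genes followed. The list of EGF family ligands and receptors also holds the receptor tyrosine kinases Epha2, Fgfr1, Fgfr2 and Met, and 6 of its 16 genes (37.5%) had an Etv4-only intergenic region, Areg, Egfr, Epgn, Epha2, Ereg and Tgfa. The EGF family ligands Epgn, Ereg and Areg lie in one cluster on chromosome 5, where 2 regions were assigned to Epgn, 1 to Ereg and 2 to Areg, and the Areg region chr5:91110931-91111536, 28.4 kb upstream, held the ETS site shown above. At Tgfa, the region chr6:86148912-86149592 lay 46.0 kb upstream. Of the Yap/Tead targets and actin genes, 8 of 20 had such a region, and 5 a shared one. They included Lats2, a kinase that restrains Yap (chr14:57760175-57761110, 2.26 kb upstream), Tpm1, encoding a tropomyosin (chr9:67019850-67020650, with 1 AP-1 site), the actin crosslinker gene Flna (chrX:74219611-74220543, with 1 AP-1 site) and Actb (chr5:142928879-142929466, 22.4 kb upstream). Inflammatory and NF-κB genes had 8 of 20 for both kinds of region, and 5 genes had both. At Csf2, encoding GM-CSF, regions at chr11:54215938-54216792 and chr11:54217264-54217872 lay 33.3 and 32.1 kb from the start. The region of the interleukin gene Il1b (chr2:129413236-129413833, 42.4 kb upstream) held 1 RUNX and 1 AP-1 site. The chemokine gene Cxcl1 had 3 regions. The one with the lowest number (chr5:90876371-90877117, 14.5 kb upstream) held 1 RUNX site, and the nearest to the start, 10.6 kb upstream, held 1 RUNX and 1 AP-1 site.

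Matrix, laminin and epithelial genes were represented on both sides of the transition. Matrix and mesenchymal genes had Etv4-only intergenic regions at 7 of 21 (33.3%) and shared ones at 4. Itga5 had the region chr15:103370204-103370940, number 1059, 3.81 kb upstream with 2 AP-1 sites. Col1a1, encoding type I collagen, had chr11:94916377-94917185, 19.4 kb upstream with 1 ETS and 1 AP-1 site. Fn1, encoding fibronectin, had chr1:71667231-71667874, 14.4 kb upstream with 1 AP-1 site, and the nearest Etv5 region was 83.1 kb away. At Thbs1 (thrombospondin 1), chr2:118127191-118128357 held neither. Keratins and laminins, listed with some integrins, had 6 of 18, against 7 with a shared region. They included Krt8 (chr15:101995391-101996293) with its 6 ETS sites. Epithelial identity and junction genes had 3 of 21 (14.3%), Cldn4, Epcam and Grhl2, and 1 gene with a shared region. Of their 5 Etv4-only intergenic regions 4 held an AP-1 site (44.3% over all 1973), as did chr17:87609577-87610407, 26.0 kb upstream of the adhesion gene Epcam.

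The counts of the remaining lists are to be read against 4.77% of all protein-coding genes with an Etv4-only and 3.64% with a shared intergenic region. AP-1 and immediate early genes had Etv4-only intergenic regions at 5 of 20 genes (Btg2, Egr2, Ier3, Jund and Klf6) and shared ones at 8. The longest, chr13:5869890-5871992 of 2103 bp, lay 6.26 kb from the start of Klf6. ERK feedback genes had 2 of 18 (Dusp5 and Lrig1) against 6 with a shared region, and EMT transcription factors 1 of 12, Snai1, against 4. ETS and Runx genes had 1 of 21, Elk3, close to the share of all genes, against 3. Metalloproteinases and inhibitors had 2 of 18, Mmp9 and Mmp13, for Etv4-only and 2 for shared regions. The Mmp9 region chr2:164932323-164933209 lay 8.01 kb upstream and held the AP-1 site shown above. Mmp13 had chr9:7240139-7240633, 32.1 kb upstream with 1 ETS and 1 AP-1 site. Its other region, chr9:7262357-7262723, lay 9.97 kb upstream, held 2 AP-1 sites and missed an Etv5 region by 0.284 kb. Mmp13 also had 1 shared intergenic region. Cell cycle genes had 3 of 16, Ccnd1, Cdkn2a and Mdm2, and 2 with a shared region. With at most 22 genes per list, differences between Etv4-only and shared counts of a few genes were not tested.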

How the data were processed

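ChIP-seq was performed on EpRas cells with antibodies to Etv4 and Etv5, in 1 library each, with 15 PCR cycles and Ion Proton sequencing. Per library, the authors called regions with CisGenome in its one-sample mode, without input and at a lenient p-value cutoff. A listed region is thus a call, and weak calls may be among them. The deposited BED lists have 6 columns in mm10 positions, a deposited score of 1000 for every region, and a region number. The submitters' processing notes name Bowtie. How regions were numbered is not given in the sources used here. The 6 mitochondrial regions of the Etv4 list and 8 of the Etv5 list were not used.

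Samples were grouped by antibody. An overlap of 1 bp or more counted. Sequence was read from GRCm38 and annotation from GENCODE. Distances run from the midpoint to the closest transcript start, coordinates count from 1, and sides follow the gene's strand. Exact patterns were searched on both strands, and the background share was taken from windows in the same GC class (2 percentage points, at least 100 windows). Other patterns searched were the cyclic AMP element TGACGTCA, the Klf and Sp factor box GGGCGGGG, the NF-Y factor box CCAAT, the Gata factor element AGATAA and the ETS core GGAA, which the TEAD element also contains. The CTCF, NF1 and NF-κB elements were searched by their usual consensus. Multicopy 36-base sequences were counted over the whole assembly, at the read length of the accessibility libraries of the study.

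The members and gene lists were chosen with earlier results of these data known. Regions were named by rules: the 10 lowest region numbers that are not mostly multicopy, listed genes with up to 4 examples by lowest number, the closest ETS and AP-1 pairs without overlap and regions with 3 or more ETS sites, regions just inside and outside each limit, the 3 densest groups, and the 10 most enriched 7-base sequences in at least 30 regions. Regions with ETS sites near listed genes were picked out in addition, after their values were seen. Some regions that these rules name are not reported here. No tests were run. Overlap, pattern search, background and interval steps were checked on simulated regions, where 600 of 600 overlaps and 397 of 397 planted ETS sites were recovered. The work used matplotlib 3.10.9, numba 0.67.0, scipy 1.17.1, pandas 2.3.3 and numpy 2.4.6 under Python 3.11.15.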

Additional observations from a re-analysis of the deposited data

How the results depend on the processing

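The number of Etv4-only intergenic regions, their ETS and AP-1 shares and the folds over windows were recomputed with other limits, windows, patterns and backgrounds. The limit on soft-masked sequence, leaving out the densest stretch of 2 Mb and the recount of the backwards AP-1 pattern were added after seeing the data. Over all settings run, the ETS fold was at least 1.07 and the AP-1 fold at least 4.92. The number fell to 707 in the longer 50% of the Etv4 list and to 726 in the first 50% by number, by construction. There the AP-1 share was 49.9 and 51.4% and its fold 6.31 and 6.48. Without mostly multicopy regions the AP-1 share was 47.9% and its fold 6.02, and with protein-coding starts and bodies only they were 40.3% and 4.92. In a window of 200 bp the ETS share was 4.76% and its fold 2.88, and the AP-1 share 28.9% and its fold 9.05. The ETS share was 0.963% with the strict pattern CCGGAAGT and 80.4% with the loose pattern (GGAA after A or C and before A or G), for which the fold was 1.07. Without GC classes the ETS fold was 2.78 and the AP-1 fold 5.93. The AP-1 fold was 5.11 over windows 2 kb to each side, and 5.12 with regions and windows at most 50% soft-masked. Shorter windows and stricter patterns lower a share by construction, and for other moves the cause was not tested. The other 54 values, and 6 of those added, stayed within the interval of the reported value, or within 1.5 times it for counts.

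The backwards AP-1 pattern (ACTGAGT) was found in 11.6% of regions, at 1.58-fold, but it can overlap an AP-1 site, and without overlapping sites it was found in 8.21%, at 1.24-fold (interval 1.06 to 1.43). No paired analysis was possible because there was only 1 library for each antibody. No input library was used in calling, depth is unknown, and with 1 library per antibody the absence of an Etv5 region rests on one list.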
